A study of Homo sapiens with 8 samples.

Results

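The genes described here encode subunits of the ligand-gated ion channels for GABA, glutamate, glycine and acetylcholine. They are the genes with a symbol of the GABRA, GABRB, GABRG, GRIA, GRIK, GLRA, CHRNA or CHRNB series or of the GRIN series, and each is read from the probe set that names it alone and has the highest mean over all arrays. This gave 39 genes of the 19775 with a probe set of their own: 9 GABA-A receptor subunits, 3 glycine receptor subunits, 4 AMPA, 5 kainate and 7 NMDA receptor subunits, and 11 nicotinic receptor subunits. The genes were taken by symbol and not by their measured values, although earlier results of these data were known at that time. The brightest probe set stands for each of them.

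Total RNA of human embryonic stem cells was measured on 8 expression arrays in 4 groups of 2 arrays, labelled A and B. The groups were embryoid bodies with 20 mM ethanol, embryoid bodies with 0 mM ethanol, undifferentiated cells with 20 mM ethanol and undifferentiated cells with 0 mM ethanol. Exposure lasted 24 h, all groups carry the label of the H9 line, and culture was in mTeSR, a defined medium for pluripotent cells. Embryoid bodies are aggregates of pluripotent cells that differentiate into cells of several germ layers; their age in culture is not given in the sources used here. The labels do not say that the duplicates were separate cultures, so each p-value measures the spread between these arrays, which may be technical.

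Values are array signals in arbitrary units, and a signal is compared between samples only for the same probe set. The median signal was 102 on both arrays of embryoid bodies with 20 mM ethanol, 83.2 and 85.1 on those with 0 mM, 74.1 and 79.4 on undifferentiated arrays with 20 mM and 69.2 and 70.8 with 0 mM. A check of line-specific transcripts found 4 of 8 arrays that did not match their labelled line, and these 4 were all from the same stage. Stage and cell line therefore cannot be told apart in any difference between embryoid bodies and undifferentiated cells below, while each ethanol comparison lies within 1 stage. In such bulk RNA, fewer cells of a type and less RNA per cell cannot be told apart either.

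Each of these channels is an assembly of several subunits around a pore that opens when transmitter binds. GABA-A and glycine receptors pass chloride and usually inhibit mature neurons, AMPA, kainate and NMDA receptors pass cations in response to glutamate, and nicotinic receptors pass cations in response to acetylcholine. Subunit choice sets the affinity, speed, calcium permeability and location of a receptor. GABA-A receptors combine alpha, beta and gamma subunits, NMDA receptors need GRIN1 beside GRIN2 or GRIN3 subunits, and kainate receptors with GRIK4 or GRIK5 need a partner from GRIK1 to GRIK3. In the embryo, GABA and glutamate receptors appear before synapses form and are known to influence the division and migration of neural progenitors.

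Promoter sequence was available for 29 of the 39 genes in a RefSeq table of the GRCh38.p14 build, as 300 bases per gene, 250 before and 50 after the start. Sequences are printed for 4 of the genes whose signals differed between the stages at both ethanol doses, 1 GABA-A, 1 AMPA and 2 NMDA receptor subunits. Capitals mark CG dinucleotides, the main sites at which human DNA is methylated. GABRB2 lies at chr5:161546676-161546975 (minus strand), GRIA4 at chr11:105610456-105610755 (plus strand), GRIN2A at chr16:10182018-10182317 (minus strand) and GRIN2D at chr19:48393418-48393717 (plus strand).
GABRB2: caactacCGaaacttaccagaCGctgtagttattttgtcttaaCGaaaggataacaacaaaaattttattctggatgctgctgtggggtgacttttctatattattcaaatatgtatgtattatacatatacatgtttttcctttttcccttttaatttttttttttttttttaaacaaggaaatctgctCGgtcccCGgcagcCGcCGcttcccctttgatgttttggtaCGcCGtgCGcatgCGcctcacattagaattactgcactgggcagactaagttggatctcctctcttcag
GRIA4: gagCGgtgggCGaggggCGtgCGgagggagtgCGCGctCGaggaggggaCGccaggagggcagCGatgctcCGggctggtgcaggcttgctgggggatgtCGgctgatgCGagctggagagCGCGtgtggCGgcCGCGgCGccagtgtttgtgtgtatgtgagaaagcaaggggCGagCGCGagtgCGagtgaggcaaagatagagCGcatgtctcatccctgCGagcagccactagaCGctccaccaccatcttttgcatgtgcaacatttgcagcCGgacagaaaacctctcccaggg
GRIN2A: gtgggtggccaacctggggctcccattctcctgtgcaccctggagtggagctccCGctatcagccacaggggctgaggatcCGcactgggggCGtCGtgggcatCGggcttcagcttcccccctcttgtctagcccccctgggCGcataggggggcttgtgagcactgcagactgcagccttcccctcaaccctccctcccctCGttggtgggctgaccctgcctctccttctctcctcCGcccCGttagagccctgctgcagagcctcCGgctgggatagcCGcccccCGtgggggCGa
GRIN2D: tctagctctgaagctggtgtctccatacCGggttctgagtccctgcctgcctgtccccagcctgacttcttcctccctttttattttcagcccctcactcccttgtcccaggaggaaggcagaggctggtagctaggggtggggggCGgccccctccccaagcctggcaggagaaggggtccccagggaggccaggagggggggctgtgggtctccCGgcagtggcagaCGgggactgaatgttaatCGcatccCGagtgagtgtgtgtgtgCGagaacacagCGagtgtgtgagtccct

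The GRIA4 stretch holds 26 CG dinucleotides, more than 70.2% of the 27305 promoters in the table. GRIN2A holds 13, GABRB2 11 and GRIN2D 8, which is more than 48.5%, 45.6% and 39.9% of promoters. Over the 29 receptor genes the median was 14, the same as over all promoters. The octamer ATGCAAAT, read on both strands, occurred in none of the 29 and in 1.8% of all promoters. TATAAA occurred in 1 of them, CHRNB1, or 3.45%, against 12% of all promoters. Several of the genes are neighbours. In the order of protein-coding genes in the same RefSeq build, CHRNA5, CHRNA3 and CHRNB4 follow each other on chromosome 15, as do GABRA5 and GABRG3. GABRG1 and GABRA2, and likewise GABRA4 and GABRB1, are adjacent on chromosome 4, GABRB2 and GABRA6 on chromosome 5, and CHRNB3 and CHRNA6 on chromosome 8.

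Of the 39 subunit genes, 19 had a signal above the array median on both arrays of at least 1 group, or 48.7%, against 69.5% of all 19775 genes. By group, 15 were above it in embryoid bodies with 20 mM ethanol (38.5%, against 63.8% of all genes), 14 in those with 0 mM (35.9%, against 63.8%), 14 in undifferentiated cells with 20 mM (35.9%, against 63.4%) and 14 with 0 mM (35.9%, against 63.5%). The number of subunit genes above the median was thus nearly the same in both stages. Above the median on all 8 arrays were 10 genes: GABRA5, GRIA3, GRIK5, GRIN2C, GRIN2D, CHRNA3, CHRNA5, CHRNA9, CHRNB1 and CHRNB2. On no array above it were 16: GABRA3, GABRA6, GABRB1, GABRG1, GABRG3, the glycine receptor subunits GLRA1, GLRA2 and GLRA3, GRIA2, GRIK4, GRIN1, GRIN2B, CHRNA1, CHRNA10, CHRNB3 and CHRNB4. The other 4 that missed the criterion, GABRA2, GRIK1, GRIN3B and CHRNA6, passed the median on 1 array each.

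Channel families differed in how many of their genes met the criterion. Among GABA-A subunits 3 of 9 did (GABRA4, GABRA5 and GABRB2), and none of the 3 glycine receptor subunits did, at signals of 2.95 to 40.7. AMPA subunits contributed 3 of 4 (GRIA1, GRIA3 and GRIA4), kainate subunits 3 of 5 (GRIK2, GRIK3 and GRIK5) and NMDA subunits 4 of 7 (GRIN2A, GRIN2C, GRIN2D and GRIN3A). Nicotinic subunits contributed 6 of 11 (CHRNA2, CHRNA3, CHRNA5, CHRNA9, CHRNB1 and CHRNB2). These 19 genes were also the ones tested, because testing required 2 arrays above the median. The 20 genes that were not tested had signals of 0.794 to 110 on single arrays. GRIN1, the subunit that every NMDA receptor needs, was among them, with 93.3 and 43.7 in embryoid bodies with 20 mM ethanol, 53.7 and 20.9 in those with 0 mM, 22.4 and 20.9 in undifferentiated cells with 20 mM and 24.5 and 33.9 with 0 mM. This GRIN1 set is of the _x_at kind, whose probes can also match other transcripts. Its log2 change between the stages at 20 mM was 1.56. The 4 dimmer GRIN1 sets gave -0.07, 0.02, -0.20 and -0.28.

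**Figure D1:**
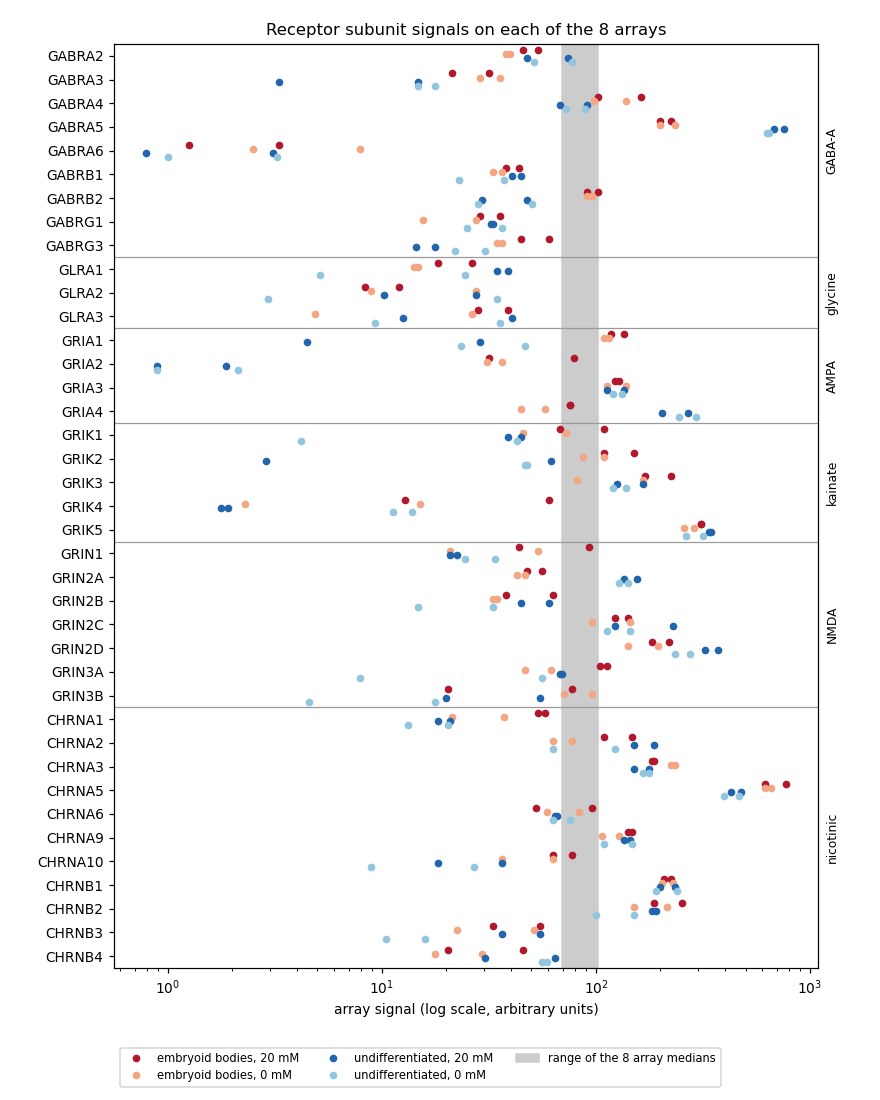
Signal of each of the 39 receptor subunit genes (rows, grouped by channel family) on each of the 8 arrays, on a logarithmic axis in arbitrary units; colours give the 4 groups and the grey band the range of the array medians, 69.2 to 102. The 3 glycine receptor rows lie left of the band on all arrays, and 10 genes lie above their array's median on every array.

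Between the stages, GABRA5, GRIN2A, GRIN2D and GRIA4 were lower in embryoid bodies than in undifferentiated cells at both ethanol doses, and CHRNA5 and GABRB2 were higher at both. CHRNA3 passed the test at 0 mM (higher) and GRIA1 at 20 mM (higher). A gene was called when its adjusted p from limma, over all 14079 genes tested, was under 0.05. At 0 mM 7 of the 19 tested subunit genes were called, or 36.8%, against 52.7% of all genes tested: 3 higher, where 28% of all genes were called higher, and 4 lower, where 24.7% were called lower. At 20 mM 7 of 19 were again called, against 56.3% of all genes: 3 higher against 29.2%, and 4 lower against 27.1%. Of the 8 genes called at either dose, 6 were called at both. The arrays of the 2 stages did not overlap for 10 of the 19 at 0 mM, 6 with embryoid bodies higher and 4 lower, against 40.3% and 38.1% of all genes. At 20 mM they did not overlap for 14, 8 higher and 6 lower, against 39.6% and 37.6%.

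Among the tested genes, 6 entered through arrays of 1 stage alone: GRIA1, GRIK2, GABRB2 and GRIN3A through embryoid bodies, GRIA4 and GRIN2A through undifferentiated cells. For these a difference between the stages was in part a condition of being tested, and the counts above do not stand for all 39 genes. GABRB2 and GRIN3A entered through 1 group alone, embryoid bodies with 0 mM and with 20 mM ethanol. For them the same limit holds for the ethanol change in embryoid bodies.

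GABRA5 encodes an alpha subunit of GABA-A receptors that in the brain is abundant in the hippocampus and found largely outside synapses. Its signal was 199.5 and 224 in embryoid bodies with 20 mM ethanol, 199.5 and 234 in those with 0 mM, 676 and 759 in undifferentiated cells with 20 mM and 646 and 631 with 0 mM. All embryoid body arrays lay far below all undifferentiated arrays, and all 8 lay above their array medians. It fell by 1.76 ± 0.11 on the log2 scale at 20 mM (SE, n = 2 arrays per group), which is 3.39-fold lower (limma, adjusted p = 0.000175), and by 1.56 ± 0.11 at 0 mM, 2.95-fold lower (adjusted p = 0.000288). The call held under all 20 alternative settings tried at each dose. Both other probe sets of GABRA5, which were dimmer, had the same sign, with log2 changes of -0.27 and -1.05 at 20 mM and -1.31 and -1.26 at 0 mM.

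Among NMDA receptor subunits, GRIN2A encodes the glutamate-binding GluN2A, which in rodent brain becomes abundant after birth. GRIN2A had signals of 47.9 and 56.2 in embryoid bodies with 20 mM ethanol, 46.8 and 42.7 in those with 0 mM, 134.9 and 155 in undifferentiated cells with 20 mM and 129 and 141 with 0 mM. The undifferentiated arrays were all above their array medians and the embryoid body arrays all below theirs. It fell by 1.48 ± 0.12 on the log2 scale at 20 mM (2.79-fold lower, limma adjusted p = 0.00035) and by 1.59 ± 0.12 at 0 mM (3.02-fold lower, adjusted p = 0.000324). The call held under all 18 alternatives that tested the gene at each dose, but these leave out some stricter filters. GRIN2A entered the test through undifferentiated arrays alone. The filter on the mean over all arrays and the filter at a higher percentile did not test it. With no filter on dim genes the 0 mM call held (limma adjusted p = 0.00159). Another probe set, with signals of 43.7 to 55 in embryoid bodies and 83.2 to 129 in undifferentiated cells, gave -1.03 at 20 mM and -1.48 at 0 mM. The dimmest set gave -1.25 and -0.53. At 20 mM its stages overlapped, with 56.2 and 6.46 in embryoid bodies against 50.1 and 40.7 in undifferentiated cells.

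GRIN2D encodes GluN2D, the NMDA receptor subunit with slow closing kinetics that in rodents is prominent before birth. It had 219 and 182 in embryoid bodies with 20 mM ethanol and 195 and 141 in those with 0 mM, against 324 and 372 in undifferentiated cells with 20 mM and 234 and 275 with 0 mM. The stages did not overlap at either dose, although the span was much narrower than for GRIN2A. It fell by 0.80 ± 0.19 on the log2 scale at 20 mM (1.74-fold lower, limma adjusted p = 0.0146) and by 0.61 ± 0.19 at 0 mM (1.53-fold lower, adjusted p = 0.0385). The 0 mM call ended in 10 of 18 alternatives, among them every fit without an array of 20 mM cells (adjusted p = 0.0531 to 0.0534). It ended as well without the embryoid body 0 mM replicate B (adjusted p = 0.16) and without undifferentiated 0 mM replicate A (adjusted p = 0.0681) or B (adjusted p = 0.158). The 20 mM call ended without the undifferentiated 20 mM replicate B (adjusted p = 0.0691) and without the embryoid body 20 mM replicate B (adjusted p = 0.0792).

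GRIN2C, whose protein is known from the cerebellum, and GRIN3A, whose glycine-binding protein lowers the calcium permeability of the receptor, were not called. GRIN2C had 123.03 and 141 in embryoid bodies with 20 mM ethanol, 145 and 95.5 in those with 0 mM, 229 and 123.03 in undifferentiated cells with 20 mM and 145 and 112 with 0 mM, and the stages overlapped. GRIN3A had 112 and 104.7 in embryoid bodies with 20 mM, 46.8 and 61.7 in those with 0 mM, 69.2 and 67.6 in undifferentiated cells with 20 mM and 56.2 and 7.94 with 0 mM, so embryoid bodies with ethanol were the 1 group in which it passed the array median. Its log2 changes between the stages were 0.66 at 20 mM (95% interval -1.41 to 2.73) and 1.35 at 0 mM (-0.73 to 3.42).

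Of the AMPA receptor subunits, which carry most fast excitation in the brain, GRIA4 was lower and GRIA1 higher in embryoid bodies. GRIA4 had 75.9 on both arrays of embryoid bodies with 20 mM ethanol and 44.7 and 57.5 with 0 mM, against 204 and 269 in undifferentiated cells with 20 mM and 295 and 245 with 0 mM. Undifferentiated signals were above the array medians and those of embryoid bodies below. It fell by 1.63 ± 0.19 on the log2 scale at 20 mM (3.09-fold lower, limma adjusted p = 0.000999) and by 2.41 ± 0.19 at 0 mM (5.31-fold lower, adjusted p = 0.000333). Its probe set is of the _x_at kind, whose probes can also match other transcripts. Without such sets GRIA4 is read from another set, with 66.1 and 148 in embryoid bodies with 20 mM, 67.6 and 72.4 in those with 0 mM, 109.7 and 102 in undifferentiated cells with 20 mM and 138 and 81.3 with 0 mM. There the changes were -0.10 at 20 mM (adjusted p = 0.859) and -0.60 at 0 mM (adjusted p = 0.274), and the call ended. The remaining set, at 7.24 to 21.4 in embryoid bodies and 51.3 to 132 in undifferentiated cells, gave -2.31 and -3.92.

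GRIA1 had 117 and 134.9 in embryoid bodies with 20 mM ethanol, 115 and 109.7 in those with 0 mM, 4.47 and 28.8 in undifferentiated cells with 20 mM and 46.8 and 23.4 with 0 mM. Embryoid body arrays were all above the array median and undifferentiated arrays all below. The log2 change was 3.47 ± 0.85 at 20 mM (11.1-fold higher, limma adjusted p = 0.0156) and 1.76 ± 0.85 at 0 mM (95% interval -0.33 to 3.85, adjusted p = 0.13, not called). The fold at 20 mM rested on a signal of 4.47 on 1 array, and on the log2(signal + 50) scale the change was 1.43. The call at 20 mM ended without either embryoid body 20 mM array (adjusted p = 0.0599 and 0.0707) and with only the arrays compared (adjusted p = 0.0634).

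For GRIA3 the probe sets disagreed. The set used had 123.03 and 129 in embryoid bodies with 20 mM ethanol, 112 and 138 in those with 0 mM, 112 and 134.9 in undifferentiated cells with 20 mM and 120.2 and 132 with 0 mM, a log2 change of 0.03 at 20 mM (95% interval -0.31 to 0.38) and -0.02 at 0 mM (-0.36 to 0.33). All 4 other GRIA3 sets had a higher mean in embryoid bodies at 20 mM and 3 of the 4 at 0 mM. One of them had 83.2 and 79.4 in embryoid bodies with 20 mM and 93.3 and 38.9 with 0 mM, against 23.4 and 13.2 in undifferentiated cells with 20 mM and 2.75 and 1.82 with 0 mM. Of these 4 sets 3 were above the median on no array and 1 on 1 array. They were not tested, since only the set with the highest mean stood for a gene.

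GRIA2 encodes the subunit that makes AMPA receptors impermeable to calcium after RNA editing. It was below the array median everywhere and was not tested, yet it had 79.4 and 31.6 in embryoid bodies with 20 mM and 36.3 and 30.9 with 0 mM, against 0.891 and 1.86 in undifferentiated cells with 20 mM and 0.891 and 2.14 with 0 mM. The stages did not overlap. With no filter on dim genes its changes passed at 20 mM (log2 change 5.28, adjusted p = 0.004) and at 0 mM (4.60, adjusted p = 0.00694). The other GRIA2 sets disagreed. A set of nearly the same mean brightness had 2.57 and 2.88 in embryoid bodies with 20 mM and 2.29 and 11 with 0 mM, against 12.9 and 29.5 in undifferentiated cells with 20 mM and 2.75 and 26.3 with 0 mM, log2 changes of -2.84 and -0.76. The dimmest had log2 changes of 2.04 at 20 mM and 4.20 at 0 mM. Signals this close to 0 give no reliable fold.

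**Figure D2:**
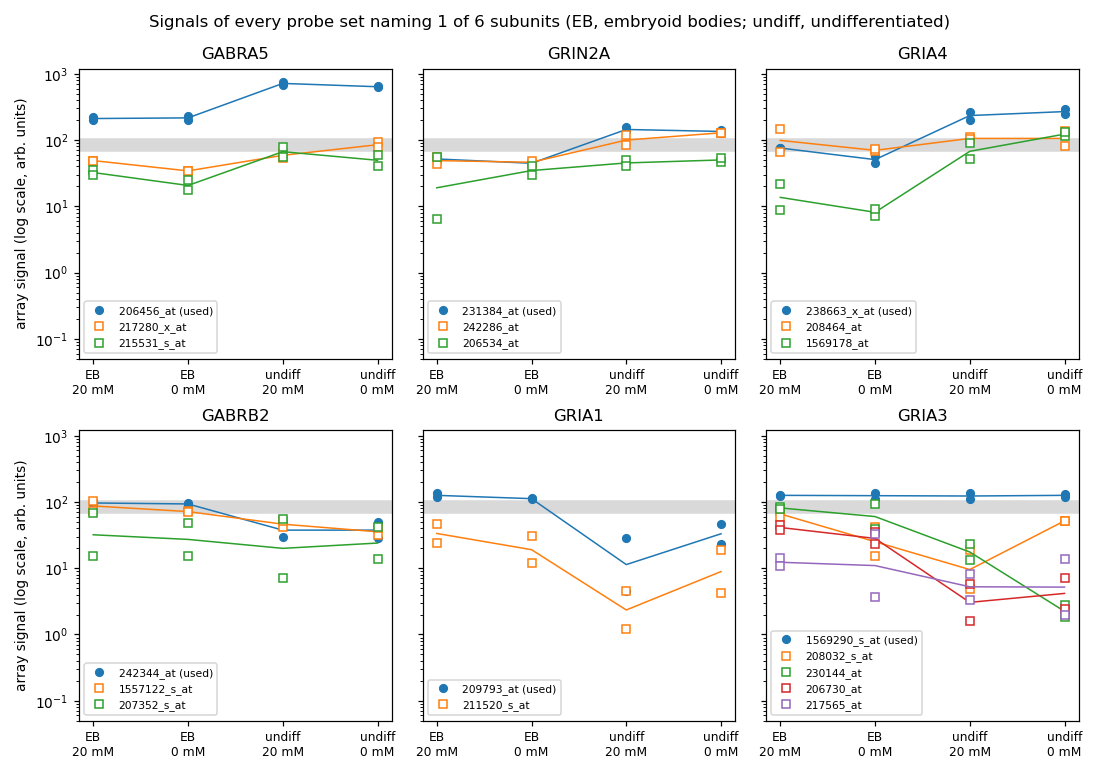
Signal on each array (logarithmic axis, arbitrary units) of every probe set that names GABRA5, GRIN2A, GRIA4, GABRB2, GRIA1 or GRIA3 alone, with lines through the geometric mean of each group; filled circles mark the set used and the grey band the range of array medians. Sets of GABRA5 and the brighter sets of GRIN2A lie lower in embryoid bodies, whereas the dimmest GRIN2A set overlaps between the stages. The GRIA3 set in use is level and its dimmer sets are mostly higher in embryoid bodies.

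None of the 3 tested kainate receptor subunits was called. GRIK2, a principal subunit that can form channels alone, had 109.7 and 151 in embryoid bodies with 20 mM ethanol, 87.1 and 109.7 in those with 0 mM, 2.88 and 61.7 in undifferentiated cells with 20 mM and 46.8 and 47.9 with 0 mM. Embryoid bodies were above undifferentiated cells at both doses, but the signal of 2.88 on 1 array widened the intervals: the log2 change was 3.27 at 20 mM (95% interval 0.04 to 6.50, limma adjusted p = 0.0778) and 1.05 at 0 mM (-2.18 to 4.27, adjusted p = 0.531). The 5 other GRIK2 sets, above the array median on no array, disagreed. At 20 mM 3 of them had the same sign, with changes from -2.41 to 0.90. At 0 mM 2 did, with changes from -1.76 to 3.12. GRIK3, another principal subunit, had 224 and 169.8 in embryoid bodies with 20 mM, 166 and 81.3 in those with 0 mM, 126 and 166 in undifferentiated cells with 20 mM and 138 and 120.2 with 0 mM. GRIK5, an auxiliary subunit of high affinity, had 309 on both arrays of embryoid bodies with 20 mM, 257 and 288 in those with 0 mM, 347 and 339 in undifferentiated cells with 20 mM and 263 and 316 with 0 mM. For GRIK5 the interval of the stage change ran from -0.42 to 0.12 at 20 mM and from -0.36 to 0.19 at 0 mM. The GRIK5 probe set is of the _x_at kind as well. Its 2 other sets, at 4.90 to 41.7, were above the array median on no array. They gave log2 changes of -0.48 and 0.66 at 20 mM and 0.70 and -1.18 at 0 mM.

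The other GABA-A subunits that were tested are GABRB2, a beta subunit of the common receptor type of the adult brain, and GABRA4, an alpha subunit of receptors outside synapses. GABRB2 had 91.2 and 102 in embryoid bodies with 20 mM ethanol and 95.5 and 91.2 in those with 0 mM, against 29.5 and 47.9 in undifferentiated cells with 20 mM and 50.1 and 28.2 with 0 mM. The stages did not overlap, but in embryoid bodies the gene stood above the array median only at 0 mM. It rose by a log2 change of 1.36 ± 0.33 at 20 mM (2.57-fold, limma adjusted p = 0.0149) and 1.31 ± 0.33 at 0 mM (2.48-fold, adjusted p = 0.0186). The 20 mM call ended under quantile normalisation (0.93, adjusted p = 0.0744), median centring (0.95, adjusted p = 0.0536) and cyclic loess (0.94, adjusted p = 0.0716), and the 0 mM call under quantile normalisation (1.01, adjusted p = 0.0615). Its 20 mM call also ended without embryoid body 20 mM replicate A (adjusted p = 0.0524) or B (adjusted p = 0.0731) or undifferentiated 20 mM replicate A (adjusted p = 0.0659). Its 0 mM call ended without embryoid body 0 mM replicate A (adjusted p = 0.0772) or B (adjusted p = 0.0689) or undifferentiated 0 mM replicate B (adjusted p = 0.0666). GABRA4 had 102 and 162 in embryoid bodies with 20 mM, 138 and 97.7 in those with 0 mM, 91.2 and 67.6 in undifferentiated cells with 20 mM and 72.4 and 89.1 with 0 mM. Its arrays did not overlap between the stages, yet it was not called, with intervals of -0.01 to 1.44 at 20 mM and -0.20 to 1.26 at 0 mM.

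Nicotinic subunits that rose were CHRNA5, an accessory subunit that joins alpha-beta pairs, and CHRNA3, the alpha subunit of receptors in autonomic ganglia. CHRNA5 had 776 and 617 in embryoid bodies with 20 mM ethanol and 661 and 617 in those with 0 mM, against 427 and 479 in undifferentiated cells with 20 mM and 398 and 468 with 0 mM. Every embryoid body array exceeded every undifferentiated array. The log2 change was 0.61 ± 0.15 at 20 mM (1.53-fold, limma adjusted p = 0.0139) and 0.56 ± 0.15 at 0 mM (1.48-fold, adjusted p = 0.0204). Median centring, which put the median stage change of all genes at -0.40 at 20 mM and -0.25 at 0 mM, gave 0.20 at 20 mM (adjusted p = 0.294) and 0.30 at 0 mM (adjusted p = 0.141). Quantile normalisation ended the 0 mM call too (0.39, adjusted p = 0.0663). The CHRNA5 calls ended as well without the embryoid body 20 mM replicate A (adjusted p = 0.0619) or the undifferentiated 20 mM replicate A (adjusted p = 0.0652) at 20 mM. At 0 mM they ended without either embryoid body array (adjusted p = 0.0942 and 0.0622) or the undifferentiated replicate A (adjusted p = 0.0984).

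CHRNA3 had 186 and 182 in embryoid bodies with 20 mM ethanol and 234 and 224 in those with 0 mM, against 151 and 178 in undifferentiated cells with 20 mM and 178 and 166 with 0 mM. The stages did not overlap at either dose. It was called at 0 mM, at 0.42 ± 0.10 (1.33-fold higher, limma adjusted p = 0.0154), and not at 20 mM, at 0.17 (95% interval -0.08 to 0.41, adjusted p = 0.199). The 0 mM call ended in 8 of 19 alternatives, among them median centring (0.15, adjusted p = 0.34), quantile normalisation (0.14, adjusted p = 0.334) and the fits without embryoid body 0 mM replicate A (adjusted p = 0.0786) or B (adjusted p = 0.0535) or undifferentiated 0 mM replicate B (adjusted p = 0.0713). Median centring turned the 20 mM value to -0.25. The probe sets of CHRNA3 disagreed: the other 2, above the array median on 8 and 6 arrays, had log2 changes of -0.05 and 0.15 at 0 mM and -0.17 and 1.79 at 20 mM. With the mean of all sets the 0 mM call ended (0.17, adjusted p = 0.277). CHRNB4, the neighbour of CHRNA3, was below the array median on all arrays.

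Changes between the stages were not called for CHRNA2, CHRNA9, CHRNB1 or CHRNB2. CHRNB1, the beta subunit of the muscle receptor, had 224 and 209 in embryoid bodies with 20 mM ethanol, 229 and 204 in those with 0 mM, 234 and 199.5 in undifferentiated cells with 20 mM and 191 and 239.9 with 0 mM. Its log2 change was 0.00 at 20 mM (95% interval -0.36 to 0.36) and 0.02 at 0 mM (-0.34 to 0.37). CHRNB2, the beta subunit of common brain receptors, had 186 and 251 in embryoid bodies with 20 mM, 214 and 151 in those with 0 mM, 191 and 182 in undifferentiated cells with 20 mM and 100 and 151 with 0 mM. CHRNA9, known from hair cells of the inner ear, had 148 and 141 in embryoid bodies with 20 mM, 107 and 129 in those with 0 mM, 134.9 and 145 in undifferentiated cells with 20 mM and 109.7 and 148 with 0 mM. CHRNA2 had 148 and 109.7 in embryoid bodies with 20 mM, 77.6 and 63.1 in those with 0 mM, 186 and 151 in undifferentiated cells with 20 mM and 123.03 and 63.1 with 0 mM, and its stages overlapped at 0 mM. CHRNA1, the alpha subunit of the muscle receptor, was below the array median on all arrays. Of the 10 skeletal muscle markers, ACTA1 was above it on all 8 arrays and DES on 1. The others, the muscle regulators MYOD1 and MYOG among them, were above it on no array.

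**Figure D3:**
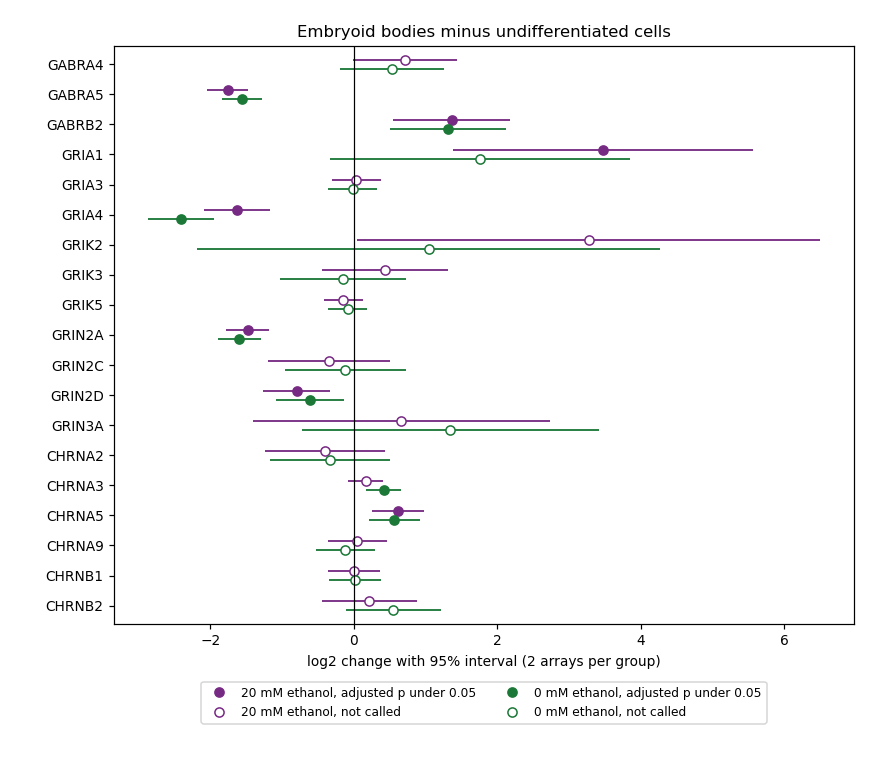
Log2 change, embryoid bodies minus undifferentiated cells, of the 19 tested subunit genes at 20 mM and at 0 mM ethanol, with 95% intervals from the limma fit (2 arrays per group); filled points have an adjusted p under 0.05. GABRA5, GRIA4, GRIN2A and GRIN2D lie left of 0 at both doses, CHRNA5 and GABRB2 right of it, and the intervals of GRIA1, GRIK2 and GRIN3A are wide.

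Other genes of transmitter signalling were taken from 7 fixed lists and read in the same fit. Beside the 52.7% of all genes called at 0 mM and 56.3% at 20 mM, enzymes and carriers that make, load or break down transmitters had 5 of 9 tested genes higher and 1 lower in embryoid bodies at each dose. GAD1, which makes GABA from glutamate, had mean signals of 2754 against 117 at 20 mM (23.4-fold higher, limma adjusted p = 0.000163) and 2600.2 against 97.7 at 0 mM (26.6-fold, adjusted p = 0.000164). SLC17A6, which loads glutamate into vesicles, had 479 against 42.7 at 20 mM (11.2-fold, adjusted p = 3.36e-05) and 447 against 51.9 at 0 mM (8.61-fold, adjusted p = 5.29e-05). The GABA-degrading enzymes ABAT and ALDH5A1 were 2.79-fold and 2.60-fold higher at 20 mM and 2.75-fold and 2.51-fold higher at 0 mM.

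Channel subunits outside the series described above had 2 of 6 tested genes higher and 3 lower at 20 mM, and 1 higher and 3 lower at 0 mM. GLRB, the beta subunit that anchors glycine receptors, was 2.51-fold higher at 20 mM and 3.02-fold higher at 0 mM (adjusted p = 0.00016 and 0.000105), while all 3 alpha subunits of that receptor were too dim to test. The GABA-A subunits GABRP and GABRQ were 1.72-fold and 2.09-fold lower at 20 mM and 2.24-fold and 1.80-fold lower at 0 mM. The serotonin-gated channel subunit HTR3A was 1.50-fold lower at 20 mM and 1.41-fold lower at 0 mM.

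Metabotropic receptors, which signal through G proteins, had 1 of 8 tested genes higher at each dose, and 1 lower at 20 mM and 2 at 0 mM. GABBR1, a subunit of the GABA-B receptor, was 2.09-fold higher at 20 mM and 1.40-fold at 0 mM; its partner GABBR2 was 1.78-fold lower at 0 mM, and the glutamate receptor GRM5 was 2.95-fold lower at 20 mM and 3.43-fold lower at 0 mM. Of 6 tested uptake carriers 2 were higher and 2 lower at each dose. The glial glutamate carriers SLC1A2 and SLC1A3 were 2.45-fold and 2.43-fold higher at 20 mM and 2.54-fold and 2.43-fold higher at 0 mM, and the glutamate carriers SLC1A1 and SLC1A6 were 1.40-fold and 1.29-fold lower at 20 mM and 1.76-fold and 1.43-fold lower at 0 mM.

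Scaffolds and auxiliary subunits, which hold receptors at synapses or tune their gating, had 12 of 28 tested genes higher and 7 lower at 20 mM, and 7 higher and 6 lower at 0 mM. After median centring 2 of the 28 were higher and 8 lower at each dose, and the values of GPHN (0.30 before and -0.12 after) and HOMER3 (0.32 and -0.10) at 20 mM changed sign, with GPHN at 0 mM going to 0. The kainate receptor auxiliary NETO2 was 3.24-fold higher at 20 mM and 3.47-fold at 0 mM. At 20 mM and 0 mM the scaffold SHANK2 was 2.29-fold and 2.14-fold lower, the GABA-A receptor auxiliary LHFPL4 2.07-fold and 1.68-fold lower, and the scaffold HOMER1 1.58-fold lower at both. Of 3 tested neuromuscular junction genes, LRP4 was 3.55-fold higher at 20 mM and 3.27-fold at 0 mM, AGRN 1.68-fold and 1.38-fold higher, and DOK7 1.76-fold lower at 0 mM. Among chloride cotransporters, which set the direction of chloride flow through GABA-A channels, the importer SLC12A2 was 2.54-fold higher at 20 mM and 2.11-fold higher at 0 mM, the exporter SLC12A7 1.51-fold and 1.43-fold higher, and SLC12A4 1.43-fold lower at 20 mM. Median centring ended the calls of SLC12A7 at both doses (log2 change 0.18 at 20 mM and 0.25 at 0 mM), of AGRN and GABBR1 at 0 mM (0.20 and 0.22) and of SLC1A3 at 20 mM (0.86, adjusted p = 0.0568), and cyclic loess that of SLC1A6 at 20 mM (adjusted p = 0.0511).

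**Figure D4:**
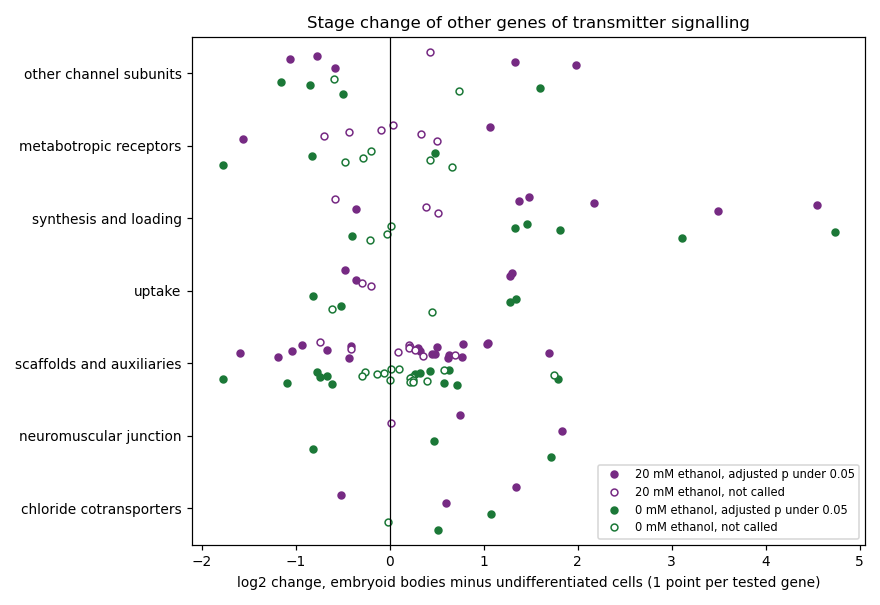
Log2 change, embryoid bodies minus undifferentiated cells, of each tested gene in 7 lists of transmitter signalling, at 20 mM and at 0 mM ethanol; filled points have a limma adjusted p under 0.05. The points furthest right are GAD1 (4.55 at 20 mM and 4.73 at 0 mM) and SLC17A6 (3.49 and 3.11), both in the list of synthesis and loading.

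Markers of cell types moved with stage as well. Of 15 tested neuron markers 9 were higher in embryoid bodies and 3 lower at 20 mM, and 9 higher and 2 lower at 0 mM, with summed signals of 28664 to 29470 against 25509 to 26030 at 20 mM and 32183 to 32723 against 25746 to 25974 at 0 mM. TUBB3, the brightest of them, made up a large part of these sums and had a lower mean in embryoid bodies. Its means were 13490 against 16218 at 20 mM and 15668 against 16032 at 0 mM. Of 10 neural progenitor markers 8 were higher at each dose, 0 lower at 20 mM and 1 lower at 0 mM, with sums of 43863 to 44622 against 15638 to 19097 at 20 mM and 43361 to 44605 against 16128 to 16602 at 0 mM. All 8 mesenchyme and all 7 endoderm markers tested were higher at both doses, while 9 of 9 pluripotency markers were lower at 20 mM and 7 of 9 at 0 mM. The list of glial markers, which holds MBP and OLIG2 beside astroglial genes, had 3 of 6 higher and 2 lower at each dose. Its sums were 929 to 939 against 935 to 1208 at 20 mM and 913 to 952 against 1066 to 1167 at 0 mM. MBP made up a large part of the undifferentiated sums and had a lower mean in embryoid bodies. The means of MBP were 134.9 against 596 at 20 mM and 211 against 646 at 0 mM. These sums therefore do not give the direction of the other genes in the list. Scaling moved some of these counts. Pluripotency markers that were lower numbered 7 of 9 at 20 mM under quantile normalisation and under cyclic loess, and at 0 mM they numbered 6 under quantile normalisation, 8 after median centring and 5 under cyclic loess, which also had 1 higher. After median centring 7 neuron markers were higher and 4 lower at each dose. Among called markers, FABP7 at 0 mM (-0.05) and INA at 20 mM (-0.02) turned negative after median centring, and TUBB3 at 20 mM turned positive (0.08) under cyclic loess. Of 10 skeletal muscle markers 1 was tested, ACTA1, and it was lower at both doses. In undifferentiated cells the neuron list was above the median for 13 of 15 genes, so these markers are not read as absent there. The part of these cell types in the receptor differences was not tested.

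No subunit gene passed the test for ethanol in either stage. In embryoid bodies limma called 0 of the 19 tested genes, against 10 of 14079 genes (0.071%; 0.0426% higher and 0.0284% lower), and 3 subunit genes had an unadjusted p under 0.05. In undifferentiated cells it called 0 of 19, against 1 of 14079 (0.0071%, higher; 0% lower), and 1 subunit gene had an unadjusted p under 0.05. For the difference between these effects it called 0 of 19 and 0% of all genes in either direction, with 1 subunit gene at an unadjusted p under 0.05. The counts over all genes varied widely with the processing. In embryoid bodies they were 0 to 4 when 1 array was left out, 0 with the replicate block, 172 on the log2(signal + 50) scale, 473 with a filter at the 75th percentile, 959 with trended and robust variance and 4233 after median centring. In undifferentiated cells they were 0 to 34 without 1 array, and for the difference 0 to 10, or 31 with trended and robust variance.

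CHRNA2, an alpha subunit of neuronal nicotinic receptors, was the gene with an unadjusted p under 0.05 in both stages. It had 148 and 109.7 with 20 mM ethanol against 77.6 and 63.1 with 0 mM in embryoid bodies, and 186 and 151 against 123.03 and 63.1 in undifferentiated cells. The arrays with ethanol were above those without in both stages. The log2 change was 0.86 ± 0.34 in embryoid bodies (1.82-fold, adjusted p = 0.214) and 0.93 ± 0.34 in undifferentiated cells (1.91-fold, adjusted p = 0.681), so neither passed over all genes.

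In embryoid bodies the other genes with an unadjusted p under 0.05 were CHRNA3 and GRIA4. CHRNA3 was at 186 and 182 with 20 mM against 234 and 224 with 0 mM, a log2 change of -0.32 ± 0.10 (adjusted p = 0.158), and in undifferentiated cells at 151 and 178 against 178 and 166, a change of -0.07 (adjusted p = 0.951). After median centring its change in embryoid bodies was -0.60 with an adjusted p of 0.0221, and with the mean of its probe sets it was 0.01. GRIA4 had 75.9 on both arrays with 20 mM against 44.7 and 57.5 with 0 mM, a log2 change of 0.58 ± 0.19 (adjusted p = 0.163), at signals below the array median. In undifferentiated cells GRIA4 had 204 and 269 against 295 and 245, a change of -0.20 (95% interval -0.66 to 0.26), and the difference between these effects was 0.78 ± 0.26 (adjusted p = 0.339).

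Signs of the ethanol changes depended on the scaling of the arrays. In embryoid bodies 16 of the 19 log2 changes were positive with a median of 0.18, against 0.02 over all genes; after median centring 6 were positive with a median of -0.10, while that of all genes was -0.27. Arrays with ethanol were all higher for 8 genes (GRIA1, GRIA4, GRIK3, GRIK5, GRIN2A, GRIN3A, CHRNA2 and CHRNA9), against 29.4% of all genes, and all lower for 1 (CHRNA3), against 28.1%. In undifferentiated cells 12 of 19 were positive with a median of 0.10, against 0.02 over all genes, and 8 were positive after median centring with a median of -0.03. There the arrays did not overlap for 6 genes, all higher with ethanol (GABRA5, GRIK5, GRIN2D, GRIN3A, CHRNA2 and CHRNB2), against 15.4% of all genes higher, and for 0 lower, against 12.1%. GRIK5, GRIN3A and CHRNA2 were the 3 genes higher on both ethanol arrays in both stages. GRIN3A was tested only through the embryoid body arrays with ethanol, so its place here was in part a condition of being tested. CHRNA2 passed the median on both ethanol arrays of each stage and on 1 array without ethanol, and GRIK5 was read from an _x_at set.

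Precision differed widely between genes. The 95% interval of the ethanol change in embryoid bodies was narrow for CHRNA3 (-0.56 to -0.07), GABRA5 (-0.32 to 0.25) and GRIK5 (-0.09 to 0.46), whereas it spanned -2.83 to 3.63 for GRIK2 and -1.92 to 2.25 for GRIA1. In undifferentiated cells GRIK2 was at 2.88 on 1 of its 2 ethanol arrays, and its interval ran from -5.05 to 1.40. None of the 7 transmitter lists had a gene called for ethanol in either stage, nor had any of the 7 lists of cell type markers.

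**Figure D5:**
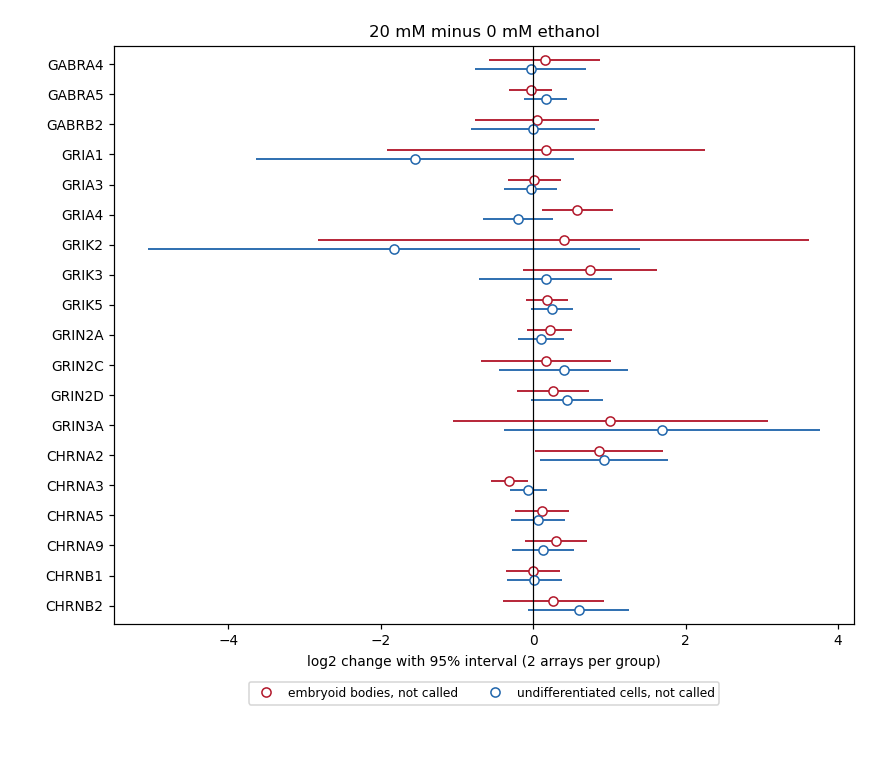
Log2 change, 20 mM minus 0 mM ethanol, of the 19 tested subunit genes in embryoid bodies and in undifferentiated cells, with 95% intervals from the limma fit (2 arrays per group); all points are open because none had an adjusted p under 0.05. Points of CHRNA2 lie right of 0 in both stages, at 0.86 and 0.93, and most other intervals include 0.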

How the data were processed

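Per the submitters' processing notes the arrays were processed with RMA, for which no version is given in the sources used here. The deposited values do not have that form: they are log10 signals by their values (-1.46 to 4.61, in steps of 0.01), and their trimmed mean, leaving out 2% at each end, was 500 to 500.1 on each array. The planned analysis assumed log2 values, so the deposited log10 values were taken to log2 by a constant factor, with no further normalisation. Steps of 0.01 equal 0.0332 on the log2 scale.

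The array holds 54675 probe sets. Apart from 62 controls, 41091 named 1 gene, 1801 several and 11783 none, by GEO's platform annotation. The probe set with the highest mean stood for each of 19775 genes, and 12 of the 39 receptor genes have only 1 (94 sets in all). A gene was tested if at least 2 arrays exceeded their own median of all probe sets, which left 14079. The fit was limma 3.58.1 in R 4.3.3, with 4 group means over all 8 arrays (4 degrees of freedom from residuals and 1.81 from the prior) and Benjamini-Hochberg adjustment over the 14079 genes. An adjusted p under 0.05 is a call; changes are given with the standard error of the fit. On simulated data for the stage change at 0 mM (14079 genes, 20 runs) 73.4% of log2 changes of 1 and 92.9% of those of 2 were recovered, and 4.77% of calls were false. Noise there was normal, with the variances of the fit. Only a small part of the genes carried a change, against 52.7% called in the data, so these rates need not hold for the data. The number of arrays limits the precision.

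Replicate letters A and B were not used as pairs: the residuals of arrays with the same letter correlated across genes at -0.0264 to 0.0491 over 6 pairs. Alternatives were other filters, probe set choices, scalings, an offset of 50, variance models, a replicate block, only the arrays compared, and leaving out each array.

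Receptor genes above the array median on both arrays of a group, or called, are given on every array, the rest by range or in part. From each list, called genes among the 4 smallest p at 0 mM are named. GRIN1, GRIA2 and probe sets not in use were singled out after their values were seen. The genes and lists were chosen with earlier results of these data known. Promoters and gene order came from RefSeq tables of GRCh38.p14; the files name no build, so no other coordinates are given.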

Additional observations from a re-analysis of the deposited data

How the results depend on the processing

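Called subunit genes numbered 7 of 19 tested at 0 mM between the stages. There were 2 with a filter at the 75th percentile, 4 with the mean of all probe sets, 4 after quantile normalisation and 3 to 8 when 1 array was left out (3 without the embryoid body 0 mM replicate B, 4 without its replicate A, 4 without the undifferentiated 0 mM replicate B). At 20 mM, where 7 were called, there were 11 with no filter, 2 with a filter at the 75th percentile, 4 with a filter on the mean and 4 to 8 when 1 array was left out (4 without the embryoid body 20 mM replicate B). With no filter, the genes added at 20 mM were GRIA2, CHRNA1, GABRG3 and GRIK4. All 4 were below the array median on every array. At 20 mM CHRNA1 had 53.7 and 57.5 in embryoid bodies against 18.2 and 20.9 in undifferentiated cells. GABRG3 had 44.7 and 60.3 against 17.8 and 14.5. GRIK4 had 60.3 and 12.9 against 1.91 and 1.78, too close to 0 for a reliable fold, and its log2 change at 0 mM was -1.08. Filters and probe set choices change which genes are tested, and the counts with them. With no filter all 39 subunit genes were tested, and 7190 of 19775 genes were called at 20 mM. At the 75th percentile only GABRA5 and CHRNA5 were tested. That filter called 5956 of 9053 genes at 0 mM and 6358 at 20 mM. At 0 mM the mean of all probe sets called 5321 of 12392 genes, and quantile normalisation 7247 of 14079. The filter on the mean called 7738 of 12911 genes at 20 mM. For ethanol in embryoid bodies median centring gave 1, CHRNA3, against 0. In undifferentiated cells GRIN3A and GRIK2 passed only in a fit that left 1 dim array in a group. The change of GRIN3A was 3.11 without the 0 mM replicate A (56.2), which left the replicate B at 7.94. That of GRIK2 was -4.04 without the 20 mM replicate B (61.7), which left the replicate A at 2.88. For the difference of the ethanol effects 0 were called in all 19 alternatives. The replicate block gave 6 and 7 calls between the stages at 0 and 20 mM and 0 for ethanol in each stage and for the difference; it ended the GRIN2D call at 0 mM (adjusted p = 0.06). Subunit genes above the array median numbered 19, with 9 for the mean of all probe sets, 2 at the 75th percentile and 19 to 21 without 1 array. Fewer genes pass a stricter filter by construction; the cause of the other shifts was not tested. Median centring split all calls between the stages into 2558 higher and 5634 lower at 0 mM and 2268 and 6796 at 20 mM, against 3948 and 3478, and 4113 and 3809. It gave 162 higher and 4071 lower genes for ethanol in embryoid bodies. On the log2(signal + 50) scale changes were smaller at dim signals, at -0.97 for GRIN2A, -1.66 for GRIA4 and 0.70 for GABRB2 at 0 mM. No called stage change of a subunit gene changed sign under any alternative; GPHN, HOMER3, INA and FABP7 from the other lists did after median centring and TUBB3 did under cyclic loess.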

Other observations

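One further probe set names CHRNA7 together with CHRFAM7A, a partial copy of that nicotinic receptor gene, and so was not read as either. It had signals of 234 and 219 in embryoid bodies with 20 mM ethanol, 158 and 239.9 in those with 0 mM, 158 and 120.2 in undifferentiated cells with 20 mM and 182 and 138 with 0 mM.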
